A study of Homo sapiens with 6 samples.

Results

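The genes described here are 10 members of the BCL2 family, chosen by symbol from a table of 20824 genes: the BH3-only genes BMF, BBC3, BCL2L11, BIK, BAD and PMAIP1, the pro-survival genes BCL2, BCL2L1 and MCL1, and the effector BAK1. All 10 were in the table, and 9 of them passed the filter on low values that a test required. Their transcripts were measured by strand-specific mRNA sequencing in 21NT cells, an established human breast epithelial line used as a model of ductal carcinoma in situ. Of 3 stable lines with 2 libraries each, the EV line carried the empty pcDNA3.1 vector, and the TBX3iso1 and TBX3iso2 lines carried the same vector with 1 of the 2 splice isoforms of TBX3, a T-box transcription factor. All 3 lines were selected with G418, their resistant clones were pooled, and the cells were grown in medium with serum, insulin, epidermal growth factor and hydrocortisone, so each line stands for a single transfection. The sources do not say whether the 2 libraries of a line came from separate cultures, and the p-values then measure only the spread between libraries, which may be technical.

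The BCL2 family sets whether the outer mitochondrial membrane of a stressed cell is opened. Effectors such as BAK1 and BAX form pores that release cytochrome c, pro-survival proteins such as BCL2L1 (BCL-XL) and MCL1 hold them in check, and the BH3-only proteins, each tied to a different kind of stress, occupy the pro-survival proteins or engage the effectors. In breast epithelium BMF and BCL2L11 (BIM) are known for their part in the death of cells that lose contact with the matrix, and much of the family's regulation is on protein stability, phosphorylation and location, which transcript levels do not show.

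TBX3 itself was measured at 8.52 and 8.24 RPKM (reads per kilobase of transcript, scaled to the mapped reads of the library) in the EV libraries, at 13.1 and 11.4 RPKM in the TBX3iso1 libraries and at 17.5 and 15.5 RPKM in the TBX3iso2 libraries. The table holds 1 value per gene, so the isoforms cannot be told apart in it. The log2 difference from EV was 0.54 (adjusted p = 0.00378) with TBX3iso1, under the 1.5-fold threshold although over it under both other scalings (0.62 and 0.63) and without TBX3iso1 replicate 2 (0.64), and TBX3 rose by 0.97 (adjusted p = 0.000257) with TBX3iso2. Libraries held from 43176600 to 54512400 alignments, and each had all 7 epithelial markers searched, summing to 2734 to 2830 RPKM with EV, 2146 to 2336 RPKM with TBX3iso1 and 2396 to 2644 RPKM with TBX3iso2. The adhesion gene CDH1 was called lower with TBX3iso1 (log2 -0.70) and KRT19 (-0.72) and ERBB2 (-0.75) with TBX3iso2. These are 14.3% and 28.6% of the 7 markers, against 14.1% and 12.3% of all genes tested that were lower, and none was called higher. Between the isoforms none of the 7 was called, where 6.29% of all genes were. Against EV, CDH1 was also lower with TBX3iso2 (-0.51), and KRT19 (-0.57) and ERBB2 (-0.54) with TBX3iso1, all under the fold threshold. With TBX3iso1, 1 of the 7 differences was positive (KRT18, 0.008). With TBX3iso2, 3 were positive (EPCAM 0.26, KRT8 0.12 and KRT18 0.30). Of 10 markers of other cell types, 8 were in the table. Their summed level was 17.0 to 17.9 RPKM with EV and 3.45 to 3.91 RPKM with the isoforms, nearly all of it CD14 and PECAM1, and without those 2 genes it was 0.0896 to 0.138 RPKM. The defining markers PTPRC, CD3E and ALB were at or near 0 in every library, and the part of these markers in the results was not tested.

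In the EV line the levels per length ran from MCL1 at 79.3 RPKM and BCL2L1 at 74.2 RPKM, through BAD at 18.8, PMAIP1 at 12.9, BAK1 at 11.5, BBC3 at 10.4 and BMF at 10.2 RPKM, to BIK at 5.48, BCL2L11 at 5.26 and BCL2 at 0.113 RPKM. BBC3 and BMF were the only neighbours in this order whose libraries overlapped. In the TBX3iso1 line BMF stood below BCL2L11, at 1.47 against 3.01 RPKM, and BAK1 and BIK stood above PMAIP1 and BBC3 respectively. The TBX3iso2 line had the order of TBX3iso1, with overlapping libraries for BAK1 and PMAIP1 alone.

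**Figure D1:**
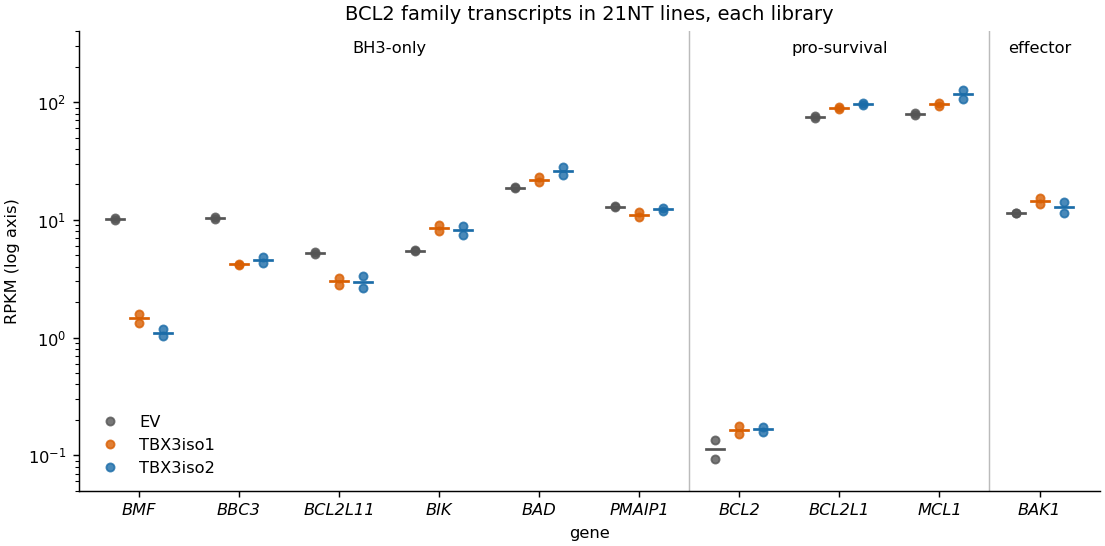
RPKM (log axis) of each of the 10 genes in each library, with the libraries of EV, TBX3iso1 and TBX3iso2 in separate colours. BMF, BBC3 and BCL2L11 lie lower in all 4 isoform libraries than in both EV libraries, BIK lies higher, and BCL2 lies below 0.2 RPKM throughout.

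A gene was called where limma gave an adjusted p under 0.05 over all 12805 genes tested and the fold was over 1.5. With TBX3iso1, 4 of the 9 tested members (44.4%) passed, against 21.5% of all genes tested. BMF, BBC3 and BCL2L11 were lower, where 14.1% of all genes were, and BIK was higher, where 7.46% of all genes were. With TBX3iso2, 3 of 9 (33.3%) passed against 21.2% of all genes. The same 3 BH3-only genes were lower, where 12.3% of all genes were, and no member was higher, where 8.94% of all genes were. Medians over the 9 members hide this split, since they were 0.23 and 0.16 on the log2 scale, against -0.05 and -0.002 over all genes tested, and 5 of the 9 differences were positive with each isoform. Both comparisons use the same EV libraries and are not independent of each other. The members were chosen with earlier results of these data known, so their shares are no measure of an excess over all genes. Of 10 other family genes tested, 0 were called with TBX3iso1 and 1 with TBX3iso2. Of all genes called with TBX3iso1, 34.6% were higher, a share of 46.6% after median-ratio scaling and 49.3% after quantile normalization, while the members lower than EV were the same under each scaling. In a bulk sample, fewer cells expressing a gene and less of its RNA per cell cannot be told apart.

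Of the members, BMF (chr15:40380091-40401093, minus strand, GRCh37), which encodes a BH3-only protein held on the cytoskeleton in attached cells, differed most. Its level was 10.4 and 9.98 RPKM with EV, 1.59 and 1.34 RPKM with TBX3iso1 and 1.18 and 1.03 RPKM with TBX3iso2. Neither isoform's libraries came near those of EV. The mean RPKM was 6.95 times lower with TBX3iso1 and 9.24 times lower with TBX3iso2. BMF fell with both, by log2 fold changes of -2.72 (95% interval -3.02 to -2.42, adjusted p = 9.06e-06) and -3.10 (-3.40 to -2.80, adjusted p = 6.56e-06). Among the 12805 genes tested it was the 48th from the lowest with TBX3iso1 and the 35th with TBX3iso2, and it was called in 15 of 15 settings of the analysis with each isoform.

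BBC3 (chr19:47724079-47736023, minus), also known as PUMA, whose protein binds every pro-survival member, was at 10.1 and 10.6 RPKM with EV, at 4.14 and 4.21 RPKM with TBX3iso1 and at 4.85 and 4.28 RPKM with TBX3iso2. The isoform libraries lay below those of EV and overlapped neither of them. BBC3 fell with both, with log2 fold changes of -1.29 (95% interval -1.51 to -1.07, adjusted p = 6.07e-05) for TBX3iso1 and -1.17 (-1.39 to -0.95, adjusted p = 9.39e-05) for TBX3iso2, which is 2.49 and 2.27 times lower in mean RPKM. It ranked 381st and 464th from the lowest and was called in 15 of 15 settings with each isoform.

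BCL2L11 (chr2:111876955-111926021, plus), a target of FOXO factors whose protein is removed under growth factor signalling, was measured at 5.17 and 5.34 RPKM with EV, at 3.24 and 2.78 RPKM with TBX3iso1 and at 3.32 and 2.64 RPKM with TBX3iso2. Every isoform library lay below both EV libraries, and the isoforms overlapped each other. Its log2 fold changes of -0.79 (95% interval -1.10 to -0.47, adjusted p = 0.0028) and -0.81 (-1.12 to -0.49, adjusted p = 0.0024) passed the test. The call was lost when log2 values were fitted without limma's sharing of the spread between genes, at adjusted p = 0.0566 with TBX3iso1 and 0.0524 with TBX3iso2, and it held in the other 14 of 15 settings, the same fit on unlogged RPKM included. Of its 6742 exonic bases, 727 overlap the noncoding gene MIR4435-2HG on the opposite strand, which rose from 10.8 RPKM with EV to 30.3 and 30.0 RPKM with TBX3iso1 and TBX3iso2. Whether strand was used in counting is not given in the sources used here, and reads from the 2 genes then cannot be told apart in that stretch. BMF likewise shares 461 of 5447 exonic bases with BMF-AS1, which is not analysed here.

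Sequences before the start sites of these 3 genes and of BAD are shown. TBX3 is a T-box factor, and FOXO and E-box factors are known to act on BH3-only genes. BAD is included because, of the windows searched, only those of BAD held the exact letters AGGTGTGA. The sequences come from RefSeq promoters of GRCh38.p14 and were placed by an exact match to GRCh37, whose coordinates are given. They run 5' to 3' over the 250 bases before the start on the gene's own strand. Capitals mark a match to AGGTGTGA (a T-box element), GTAAACA (a FOXO site) or CAGGTG (an E-box), each sought on both strands. Other forms of these elements were not sought, apart from the shorter T-box core given below. The BMF window, chr15:40399168-40399417 on the minus strand, lies before the inner of 2 RefSeq starts and inside the gene. BBC3 is shown at chr19:47735925-47736174 (minus), BCL2L11 at chr2:111878241-111878490 (plus) and BAD at chr11:64052177-64052426 (minus). By the gene positions given here, the BCL2L11 window also lies inside its gene, and the BBC3 window lies partly inside its gene.
BMF: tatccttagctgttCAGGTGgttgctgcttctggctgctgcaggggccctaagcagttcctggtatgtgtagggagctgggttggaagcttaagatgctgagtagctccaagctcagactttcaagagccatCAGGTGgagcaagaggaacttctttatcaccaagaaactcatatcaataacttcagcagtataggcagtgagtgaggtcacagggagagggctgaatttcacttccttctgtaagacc
BBC3: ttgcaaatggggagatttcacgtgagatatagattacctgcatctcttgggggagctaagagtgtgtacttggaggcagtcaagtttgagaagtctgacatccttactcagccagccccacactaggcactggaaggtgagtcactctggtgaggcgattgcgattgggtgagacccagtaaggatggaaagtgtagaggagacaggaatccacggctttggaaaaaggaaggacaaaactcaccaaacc
BCL2L11: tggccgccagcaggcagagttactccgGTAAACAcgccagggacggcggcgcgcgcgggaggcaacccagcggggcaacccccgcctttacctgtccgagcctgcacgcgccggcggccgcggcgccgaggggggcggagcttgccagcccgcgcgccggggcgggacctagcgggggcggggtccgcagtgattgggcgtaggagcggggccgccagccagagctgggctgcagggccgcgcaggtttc
BAD: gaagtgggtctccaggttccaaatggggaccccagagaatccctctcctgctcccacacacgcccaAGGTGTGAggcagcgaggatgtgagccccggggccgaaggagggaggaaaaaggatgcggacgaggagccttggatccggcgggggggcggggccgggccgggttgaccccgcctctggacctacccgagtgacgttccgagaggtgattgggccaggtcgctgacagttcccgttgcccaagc
The BMF window holds the E-box at 236 and 118 bases before the start, which 17.5% of 35116 promoters of this length hold at least once. BCL2L11 has the FOXO site 223 bases before its start, a match in 2.98% of promoters, and BAD has the T-box element 184 bases before its start, a match in 0.786%. Its shorter core GGTGTGA, which it contains, is in 2.76% of promoters. Neither the BBC3 window nor the outer BMF window at chr15:40401081-40401330 holds any of these letters, and a match describes the sequence only. The paper does list BBC3 among altered genes that both isoforms bound at shared ChIP-array sites holding a T-box element. That search covered bound regions rather than the 250 bases before a start, and the binding was not examined here. RefSeq windows were found for 8 of the 10 genes, and not for BIK and MCL1. The windows of PMAIP1, BCL2, BCL2L1 and BAK1 were searched too and hold none of the motifs.

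The other 3 BH3-only genes did not follow them. BIK (chr22:43506756-43525718, plus), a BH3-only protein of the endoplasmic reticulum, was at 5.55 and 5.41 RPKM with EV, at 8.02 and 9.13 RPKM with TBX3iso1 and at 7.40 and 8.89 RPKM with TBX3iso2, higher in all 4 isoform libraries than in EV. It rose by 0.63 (95% interval 0.37 to 0.90, adjusted p = 0.00337) with TBX3iso1 on the log2 scale, and the difference of 0.56 (0.29 to 0.82, adjusted p = 0.00578) with TBX3iso2 was under the 1.5-fold threshold. Both lie near that threshold. Without TBX3iso1 replicate 2 the first was 0.54 and no longer called, and without TBX3iso2 replicate 1 the second was 0.69 and called. The second was also called after median-ratio scaling (0.59) and quantile normalization (0.63). The first was not called with 1 RPKM added before the logarithm (0.56) or without limma's sharing of the spread, at adjusted p = 0.0599 on log2 values and 0.0793 on unlogged RPKM.

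BAD (chr11:64037302-64052176, minus), which is kept from the mitochondria by phosphorylation under growth factor signalling, had the highest level among the BH3-only members described here. It was at 19.1 and 18.5 RPKM with EV, at 20.8 and 23.3 RPKM with TBX3iso1 and at 23.9 and 28.3 RPKM with TBX3iso2. EV lay below every isoform library, while the log2 differences were 0.23 (-0.01 to 0.46, adjusted p = 0.103) and 0.47 (0.23 to 0.70, adjusted p = 0.0075), both under the fold threshold. Without TBX3iso2 replicate 1 the latter was 0.59 and called. Of its 1708 exonic bases, 404 overlap GPR137 on the opposite strand, which was at 14.1 to 17.9 RPKM. PMAIP1 (NOXA, chr18:57567228-57571537, plus), which binds MCL1 above all, was at 12.8 and 13.0 RPKM with EV, at 10.5 and 11.6 RPKM with TBX3iso1 and at 12.6 and 12.0 RPKM with TBX3iso2. Its log2 differences of -0.22 (-0.41 to -0.04, adjusted p = 0.0561) and -0.07 (-0.26 to 0.12, adjusted p = 0.517) did not pass the test, although no isoform library reached the EV values.

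The tested pro-survival genes differed less than BMF, BBC3 and BCL2L11, and none passed the fold threshold. MCL1 (chr1:150533371-150552214, minus), whose protein is short-lived, was at 80.8 and 77.8 RPKM with EV, at 97.8 and 93.5 RPKM with TBX3iso1 and at 126 and 107 RPKM with TBX3iso2. The log2 differences were 0.27 (0.05 to 0.49, adjusted p = 0.051) and 0.55 (0.33 to 0.77, adjusted p = 0.00282), and without TBX3iso2 replicate 2 the latter was 0.67 and called. BCL2L1 (chr20:30252255-30311792, minus) was at 75.6 and 72.8 RPKM with EV, at 87.2 and 90.7 RPKM with TBX3iso1 and at 94.6 and 99.1 RPKM with TBX3iso2. Its log2 differences of 0.26 (0.09 to 0.43, adjusted p = 0.0233) and 0.38 (0.21 to 0.55, adjusted p = 0.00452) had adjusted p under 0.05 at less than 1.5-fold. BCL2L1, MCL1 and BCL2L11 are spliced into forms of differing activity, which a value per gene adds together. BCL2L1 shares 1735 of its 4197 exonic bases with the antisense gene ABALON, which was at most at 0.0904 RPKM. MCL1 shares 43 of 6222 with ADAMTSL4 on the opposite strand, which was at 2.07 to 9.24 RPKM. It also shares 328 with ADAMTSL4-AS1 on the same strand, which was at 0.0473 to 0.188 RPKM.

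BCL2 (chr18:60790579-60987361, minus), the member after which the family is named, was at 0.0922 and 0.134 RPKM with EV, at 0.178 and 0.152 RPKM with TBX3iso1 and at 0.158 and 0.175 RPKM with TBX3iso2. It was under the filter and was not tested. With no filter its log2 differences were 0.32 (adjusted p = 0.164) and 0.33 (adjusted p = 0.154). BAK1 (chr6:33540324-33548070, minus) was at 11.5 and 11.4 RPKM with EV, at 13.7 and 15.4 RPKM with TBX3iso1 and at 11.5 and 14.2 RPKM with TBX3iso2, and the last of these overlapped EV. Its log2 differences were 0.34 (0.07 to 0.61, adjusted p = 0.0444), under the fold threshold, and 0.16 (-0.11 to 0.42, adjusted p = 0.296). BAK1 has the near-identical pseudogenes BAK1P1 and BAK1P2, which are not analysed here, so its level is uncertain where reads could be split.

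**Figure D2:**
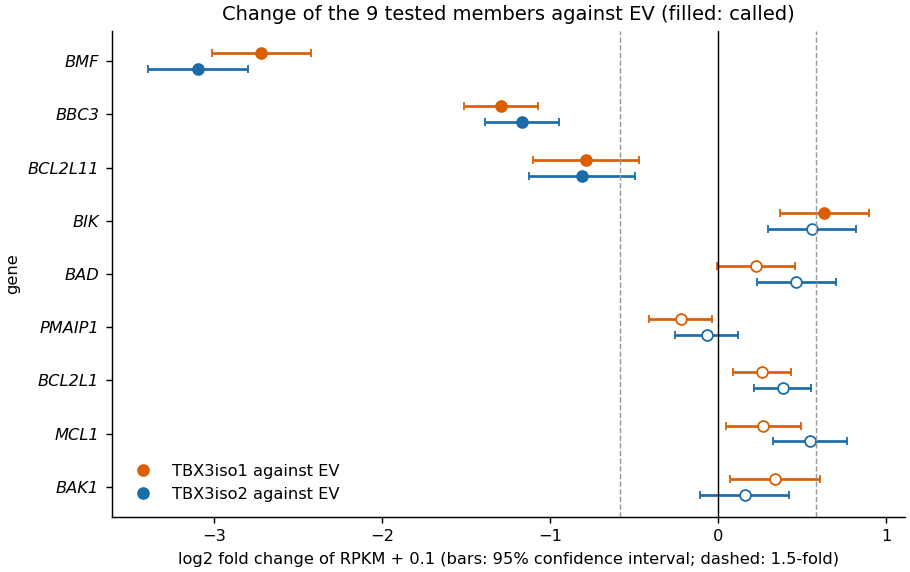
Log2 fold change against EV of the 9 tested members with TBX3iso1 and TBX3iso2, with 95% confidence intervals (filled points: called). The dashed lines mark 1.5-fold, and the intervals of BMF and BBC3 lie wholly below the lower line with both isoforms.

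Adding the RPKM of the 6 BH3-only genes gives 63.0 ± 0.163 with EV, 50.3 ± 2.85 with TBX3iso1 and 55.2 ± 2.74 with TBX3iso2 (SD, n = 2). The sum of BMF, BBC3 and BCL2L11 was 25.7 and 25.9 RPKM in the EV libraries and 7.94 to 9.35 RPKM in the 4 isoform libraries. BMF made up 15.9% to 16.5% of the BH3-only sum with EV and 1.80% to 3.30% with the isoforms, while BAD made up 29.4% to 30.2% and 43.1% to 49.6%. The 3 pro-survival genes summed to 154 ± 4.03, 185 ± 0.636 and 213 ± 10.3 RPKM, at least 99.9% of it MCL1 and BCL2L1. Pro-survival RPKM per BH3-only RPKM was 2.48 and 2.40 with EV, 3.84 and 3.53 with TBX3iso1 and 4.15 and 3.61 with TBX3iso2. The isoform libraries did not overlap those of EV in this ratio and overlapped each other. With 2 libraries a line an exact two-sided permutation test of a single value cannot go below p = 0.333, and the sums are given as a description. The sums cover the members only, and they and the ratio depend on that choice of genes. BID, a further BH3-only gene, had means of 26.15 RPKM with EV, 33.43 with TBX3iso1 and 37.18 with TBX3iso2. The pro-survival gene BCL2L2 had means of 15.71, 12.34 and 12.55 RPKM. BID stood above each of the 6 BH3-only members in every line, and the fall of the BH3-only sum does not extend to it. BCL2L2 was lower with both isoforms, where the pro-survival sum was higher. BID and BCL2L2 are in neither sum and were named after their values were seen.

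**Figure D3:**
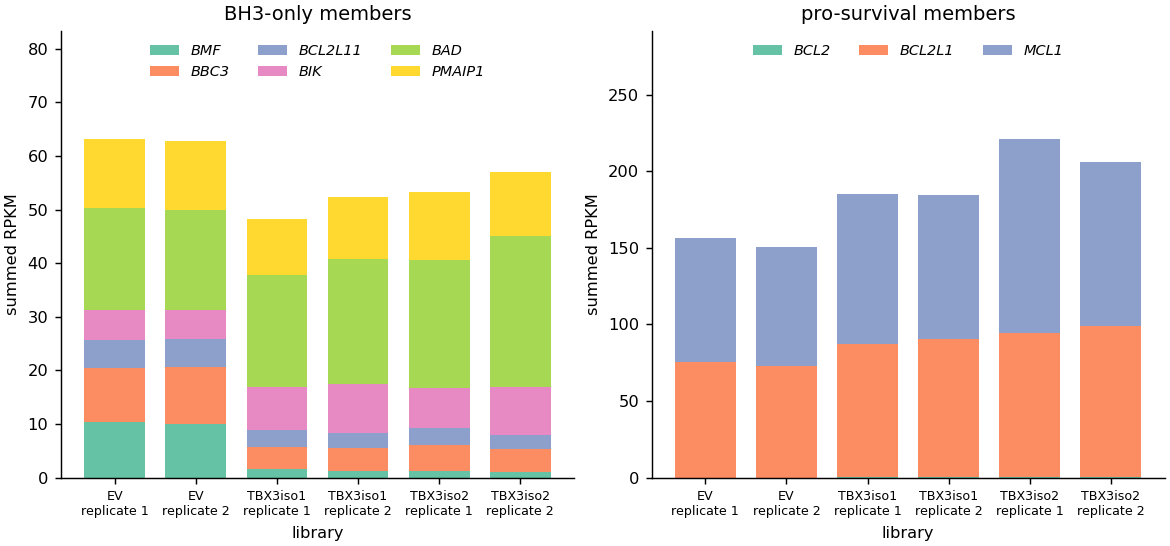
Summed RPKM of the BH3-only members and of the pro-survival members in each library, stacked by gene. The parts of BMF, BBC3 and BCL2L11 shrink in the 4 isoform libraries, BAD takes 43.1% to 49.6% of the BH3-only sum there, and the pro-survival sum is 184 to 221 RPKM against 151 to 156 RPKM with EV.

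TBX3iso2 was also compared with TBX3iso1 directly. None of the 9 tested members was called, either higher (3.47% of all genes) or lower (2.82%), where 6.29% of all genes were called, and limma without its sharing of the spread also called 0 members. No member had an adjusted p under 0.05. BMF differed by -0.38 (95% interval -0.68 to -0.08, adjusted p = 0.0901) on the log2 scale, with both TBX3iso2 libraries below both TBX3iso1 libraries. MCL1 differed by 0.28 (0.06 to 0.50, adjusted p = 0.0931) and BAD by 0.24 (adjusted p = 0.152). The 95% interval for BCL2L11 was -0.34 to 0.29, so differences within that range are not excluded by these libraries. BBC3 differed by 0.12 (adjusted p = 0.427), BIK by -0.08 (adjusted p = 0.706), PMAIP1 by 0.15 (adjusted p = 0.244), BCL2L1 by 0.12 (adjusted p = 0.308) and BAK1 by -0.18 (adjusted p = 0.331). The share of higher genes among all called was 55.2% here and 44.4% and 44.5% under median-ratio scaling and quantile normalization.

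Around these genes, a further 14 genes of the family were listed and 10 of them tested, of which 0 were called with TBX3iso1 and 1 (10%) with TBX3iso2, against 21.5% and 21.2% of all genes tested. That gene was BOK, an effector of the BAX and BAK1 type, at 8.75 and 7.74 RPKM with EV, 8.71 and 8.54 RPKM with TBX3iso1 and 13.3 and 14.4 RPKM with TBX3iso2. It rose by 0.74 (adjusted p = 0.000588) on the log2 scale with TBX3iso2, and its difference with TBX3iso1 was 0.07 (adjusted p = 0.577). The effector BAX differed by 0.01 (adjusted p = 0.944) and 0.10 (adjusted p = 0.455). HRK, BCL2A1, BCL2L14 and BCL2L15 were too low to be tested. Genes named from here on outside those called with both isoforms, BOK included, were chosen after their values were seen.

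Downstream of the membrane, 2 of 16 genes of mitochondrial release and the apoptosome were higher with TBX3iso1 and 4 of 16 with TBX3iso2 (12.5% and 25%, against 7.46% and 8.94% of all genes tested), and none was lower (14.1% and 12.3% of all genes). CYCS, which encodes cytochrome c, rose from a mean of 52.2 RPKM to 86.6 and 99.5 RPKM (log2 0.72 and 0.93, adjusted p = 0.00117 and 0.000366). VDAC3, a channel of the outer membrane, rose from 30.0 RPKM to 72.0 and 52.8 RPKM (log2 1.26 and 0.81, adjusted p = 6.17e-05 and 0.000413). BIRC2 and BIRC3, inhibitors of apoptosis, rose by 0.86 and 0.77 with TBX3iso2, and the call of BIRC3 was lost without EV replicate 1 (adjusted p = 0.0695), without EV replicate 2 (adjusted p = 0.0544) and without TBX3iso2 replicate 1 (log2 0.46). With TBX3iso1, BIRC2 and BIRC3 differed by 0.35 (adjusted p = 0.0063) and 0.31 (adjusted p = 0.189), under the fold threshold, and neither was called between the isoforms. Of 14 genes for partners and turnover of the BCL2 proteins, 0 were called with TBX3iso1 and 2 with TBX3iso2 (14.3%), against 21.5% and 21.2% of all genes tested. The 2 were the 14-3-3 genes SFN (log2 0.72) and YWHAH (0.59). With TBX3iso1 they differed by 0.39 (adjusted p = 0.0312) and 0.38 (adjusted p = 0.00629), under the fold threshold, and neither was called between the isoforms. With TBX3iso2, YWHAH was no longer called without EV replicate 2 (0.55) or TBX3iso2 replicate 2 (0.53), with 1 RPKM added (0.58) or after quantile normalization (0.48). Without limma's sharing of the spread, CYCS with TBX3iso1 (adjusted p = 0.0664), VDAC3 with TBX3iso2 (0.0514), SFN (0.0592 on log2 values) and BIRC3 (0.125 on log2 values) were no longer called in at least 1 of the 2 such fits, and BIRC3 was not called with no filter on low values (adjusted p = 0.0528).

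Of other listed genes called with both isoforms, TP63, a transcription factor that marks basal epithelium, fell from 3.04 and 3.66 RPKM with EV to between 0.243 and 0.332 RPKM in the 4 isoform libraries (log2 -3.16 and -3.11, adjusted p = 2.84e-05 and 2.95e-05). SESN2, a stress-induced gene, fell (log2 -0.81 and -0.77, the latter not called with 1 RPKM added), while the nuclease gene AEN rose by 0.70 and 0.86.

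Of 10 transcription factors known to act on BH3-only genes, 9 were tested, and 1 was higher and 3 were lower with each isoform, 44.4% called against 21.5% and 21.2% of all genes tested. FOXO3, known for driving BCL2L11 and BBC3, was at 19.8 and 20.1 RPKM with EV, 12.4 and 11.4 RPKM with TBX3iso1 and 11.3 and 9.27 RPKM with TBX3iso2. It fell (log2 -0.74 and -0.96, adjusted p = 0.00113 and 0.000333). FOXO1 fell (log2 -1.27 and -1.37), and DDIT3, a factor of the endoplasmic reticulum stress response, fell from 50.0 RPKM to 19.4 and 17.6 RPKM (adjusted p = 0.000118 and 7.55e-05). SNAI2, a repressor known to act on BBC3 through E-boxes, rose from 12.2 RPKM to 27.1 and 19.3 RPKM (log2 1.14 and 0.65), and without TBX3iso2 replicate 1 the latter was 0.58 and no longer called. E2F1, MYC, ATF4, NR3C1 and TFEB, of the same list, were not called with either isoform. Whether any of these factors bears on the levels of the BH3-only genes was not tested.

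**Figure D4:**
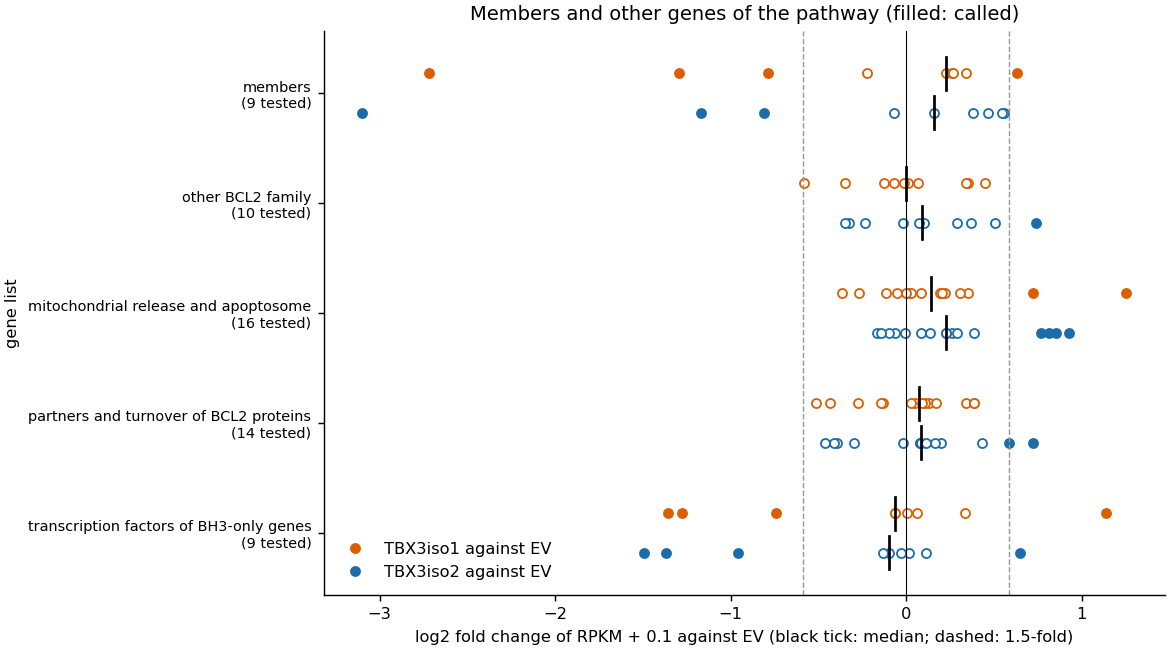
Log2 fold change against EV of the tested genes of the lists shown, 1 point a gene, with TBX3iso1 and TBX3iso2 (filled: called, black tick: median, dashed: 1.5-fold). The medians of the lists shown lie between the dashed lines, and the points furthest to the left are those of BMF among the members.

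By the Euclidean distance between the pairs of log2 fold changes of the 2 isoforms against EV, the genes nearest to BMF were DIO2 (0.19), KLK9 (0.21), CFI (0.23), FBXO32 (0.28) and FAM83E (0.29), and 14 genes lay within 0.5. FBXO32, a ubiquitin ligase subunit, was at 21.8 and 23.3 RPKM with EV and at 1.99 to 3.05 RPKM with the isoforms. The neighbourhood of BBC3 was more crowded, with 433 genes within 0.5. Its nearest genes were BCAS3 (0.011), VMO1 (0.050), LINC00235 (0.050), CACFD1 (0.059) and ARPIN (0.066). Of these, LINC00235 was at 1.09 and 0.180 RPKM in the 2 TBX3iso1 libraries and was not called with TBX3iso1 (adjusted p = 0.0877) or TBX3iso2 (adjusted p = 0.134), so its distance rests on the mean of unlike libraries. Each distance rests on the means of 2 libraries a line and on EV libraries shared by both coordinates.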

How the data were processed

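Stranded mRNA libraries of 6 samples, 2 for each of 3 lines, were sequenced on an Illumina HiSeq. The authors aligned reads to hg19 with TopHat in Galaxy and deposited RPKM per gene, computed in Partek Genomics Suite. The annotation, the strand setting and the versions are not given in the sources used here. The table holds no read counts, so the depth behind a single value is unknown, and library totals are the alignments per sample.

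For this report log2(RPKM + 0.1) was fitted with limma 3.58.1 in R 4.3.3, with a mean for each line over all 6 libraries and a trended prior, on the 12805 genes whose mean over all libraries reached 0.5 RPKM. Adjusted p is Benjamini-Hochberg over those genes. A fold change on this scale understates that of low genes. The script was tested on simulated data. Alternatives were the added value (1 or 0.01 RPKM), the filter (none or 2 RPKM), 2 further scalings, the lines fitted, a replicate block, the prior, and each library left out in turn. Named genes were all members, genes of each list called with both isoforms in the same direction (at most 6 a list), TBX3, and the 5 nearest to BMF and to BBC3. Members and lists were chosen with earlier results of these data known. Some of the genes listed, and the counts of the list that held them, are not reported here. Positions come from GENCODE v44 on GRCh37. Python 3.11.15 and matplotlib 3.10.9 drew the figures.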

Additional observations from a re-analysis of the deposited data

Results flagged for a closer look

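BOK, an effector relative of BAK1, differed between the 2 isoforms in a direct test. Its mean RPKM was 8.63 with TBX3iso1 and 13.9 with TBX3iso2, against 8.25 with EV, and the log2 difference between TBX3iso2 and TBX3iso1 was 0.68 (limma adjusted p = 0.0038). Both TBX3iso2 libraries, at 13.3 and 14.4 RPKM, lay above both TBX3iso1 libraries. Without limma's sharing of the spread between genes the adjusted p was 0.0688 on log2 values and 0.0672 on unlogged RPKM. The gene was chosen after its values were seen, and no cause was tested.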

How the results depend on the processing

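Of 135 recomputed member values in each comparison, 130 kept direction and call with TBX3iso1 and 129 with TBX3iso2, and 131 kept them between the isoforms. With TBX3iso1 the genes called went from 2757 to 1812 with 1 RPKM added, the members' median from 0.23 to 0.31 under median-ratio scaling and 0.16 under quantile normalization, and the members called from 4 to 2 without moderation on log2 values. Between the isoforms the genes called went from 805 to 419 with 1 RPKM added, 504 with a mean of at least 2 RPKM, and 199 (log2 values) and 186 (unlogged RPKM) without moderation. The members' median there went from 0.12 to 0.07 both with no filter (0.066) and under median-ratio scaling (0.072).

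Leaving out 1 library at a time gave 3 to 4 members called with TBX3iso1 and 3 to 5 with TBX3iso2, medians of 0.14 to 0.25, 0.0021 to 0.31 and 0.055 to 0.14 in the 3 comparisons, and 2295 to 3068, 2304 to 3168 and 664 to 919 genes called. The difference of BOK between TBX3iso1 and EV ranged from -0.021 without EV replicate 2 to 0.15 without EV replicate 1. Between the isoforms BCL2L11 ranged from -0.18 to 0.14, positive without TBX3iso1 replicate 1 (0.084) or TBX3iso2 replicate 2, and BIK ranged from -0.21 to 0.055, positive without TBX3iso1 replicate 2 (0.017) or TBX3iso2 replicate 1, none of them called. The cause of these shifts, beyond fewer genes tested or fewer libraries, was not tested.

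Replicates share only a number, and the correlations of their deviations were 0.22, 0.114 and 0.499 over the pairs of lines. A replicate block gave 2838, 2795 and 900 genes called in place of 2757, 2720 and 805, and it left the numbers of members called at 4, 3 and 0. BCL2 was under the filter and was fitted only without it. With 2 libraries a line, differences near the 1.5-fold threshold, those of BIK, BAD and MCL1, change their call with a single library.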
